A study of Homo sapiens with 4 samples.

Results

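The genes described here make, use up and rebuild S-adenosylmethionine (SAM), the methyl donor of N6-methyladenosine (m6A) and of most other methylation reactions. They are 10 genes chosen by symbol from the 20323 gene rows of the count files: MAT2A, MAT2B, AHCY, AHCYL1, AHCYL2, MTR, MTRR, MTAP, CBS and NNMT. Their transcripts were counted in poly(A) RNA libraries from HCT-8 cells, an established line of human colorectal cancer, in a form resistant to 5-fluorouracil, a pyrimidine drug. The control group (2 libraries, replicates 1 and 2) carried a negative control plasmid, and the METTL14 group (2 libraries, replicates 1 and 2) a plasmid for overexpression of METTL14, the partner of the m6A writer METTL3. Both groups had been given cycloheximide, which blocks translation, at 100 ug/mL, so no value comes from cells without this blocker. The labels call the work repeated in independent experiments and do not describe the plasmid's promoter or how long the cells carried it.

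In the methionine cycle, methionine adenosyltransferase joins methionine to ATP to give SAM. Each methyl transfer leaves S-adenosylhomocysteine, an inhibitor of methyltransferases, which adenosylhomocysteinase splits into homocysteine and adenosine. Homocysteine is then methylated back to methionine with a methyl group from folate, or leaves the cycle for the making of cysteine. Methylthioadenosine, a by-product of polyamine synthesis from SAM, is returned to methionine by a separate salvage route. Colorectal and other dividing cells use the MAT2A form of the synthetase, and MAT1A is the form of adult liver.

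Total counts lay between 19206661 and 20161082 per library. METTL14 itself stood at 24.6 and 30.7 CPM (counts scaled to a common library size) in the controls and at 390 and 421 CPM with the plasmid (log2 fold change 3.88, SE 0.141, adjusted p = 7.3e-05), in the direction of the labels, and any RNA made from the plasmid may be part of this count. Over all genes the METTL14 libraries were closer to each other than the controls were, with chi-square values of 3.01 and 24.7 times their degrees of freedom. Of 12 colorectal epithelial markers 10 reached 1 CPM in the controls and 11 with METTL14, and CEACAM5 held no count in the controls against 1 and 2 with METTL14. The epithelial markers summed to 11949 to 18270 CPM in the controls and 9179 to 9400 with METTL14, a fall carried by the keratins KRT8 (8446 to 4518 CPM) and KRT18 (4147 to 2187 CPM). KRT8 (log2 fold change -0.90), KRT18 (-0.92) and KRT19 (-0.39) were called lower. CDH17 (log2 fold change 1.87), CDH1 (0.74), LGALS4 (0.44) and CDX2 (0.44) were called higher, and EPCAM did not pass the test (log2 fold change -0.01). Fibroblast markers at 1 CPM numbered 4 of 10 and 3 of 10 (sums of 13.4 to 16.3 and 18.3 to 20.4 CPM). Of these markers PDGFRB (log2 fold change 1.38) and COL1A1 (0.50) were called higher, and COL1A2 (-0.79) and COL3A1 (-0.90) did not pass the test. Endothelial markers at 1 CPM numbered 0 of 6 and 1 of 6 (0.513 to 1.09 and 1.63 to 1.90 CPM). Leukocyte markers numbered 1 of 9 and 2 of 9 (1.61 to 2.36 and 3.08 to 3.66 CPM), with CD3E, CD3D and MS4A1 at 0. Among them CD14 was called higher (log2 fold change 1.75), with 6 and 10 counts in the controls against 21 and 35 with METTL14. LYZ did not pass the test (log2 fold change 0.32). The mitochondrial share of a library was 5.99 or 6.26% for controls, below the 9.85 and 10.2% of the METTL14 libraries. The part of these shifts in the results was not tested. An exact permutation test of 2 libraries against 2 cannot give a p below 0.333 for a single value. The p-values below therefore come from the model fitted across all genes. In bulk RNA, fewer cells of a type and less RNA per cell cannot be told apart.

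Of the 10 genes, 8 had enough counts to be tested. The transcripts of the SAM synthetase subunit MAT2A, the hydrolase AHCY, methionine synthase MTR and the salvage enzyme MTAP were lower with METTL14, and those of the hydrolase relatives AHCYL1 and AHCYL2 were higher. MAT2B and MTRR did not pass the test. The count is thus 6 of 8 called (edgeR's quasi-likelihood test at an adjusted p below 0.05, Benjamini-Hochberg over 12700 genes), against 55.1% of all tested genes. By direction, 2 were higher, where 27.0% of all tested genes were, and 4 were lower, where 28.1% were. The median log2 fold change of the 8 was -0.32, beside -0.01 over all tested genes. For 7 of the 8 genes both METTL14 libraries lay on 1 side of both controls, as they did for 79.8% of tested genes. Without METTL14 replicate 1 the test called 1 gene higher and 2 lower, and without METTL14 replicate 2 it called 1 higher and 3 lower. With so few members and so many calls, the counts say little, and the sizes and directions of single genes carry the description.

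**Figure D1:**
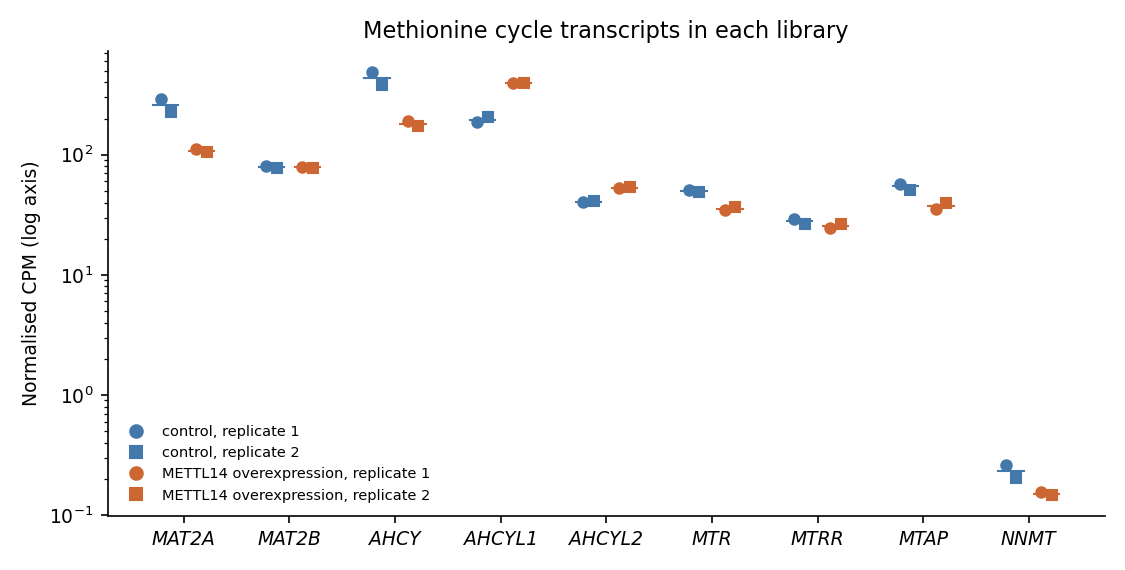
Normalised CPM on a log axis for 9 genes of the methionine cycle in each of the 4 libraries (points), with the mean of each group (line). MAT2A and AHCY lie lower with METTL14 and AHCYL1 higher, MAT2B is level, and NNMT lies below 0.3 CPM throughout. CBS, listed at 0 in all libraries, cannot be drawn on this axis.

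MAT2A (GRCh38 chromosome 2, 85539165 to 85545280, plus strand) encodes the catalytic subunit that makes SAM. Its transcript stood at 294 and 227 CPM in the controls and at 111 and 105 CPM with METTL14. Both METTL14 libraries lay below both controls, and the controls differed by more than the METTL14 libraries. The change was 2.41-fold lower (log2 fold change -1.27, SE 0.139, adjusted p = 0.000367), at percentile 5.28 of the changes of all tested genes. MAT2B (chromosome 5, 163503114 to 163519336, plus strand), the regulatory subunit that binds the catalytic one, stood at 80.3 and 78.3 CPM in the controls and at 79.6 and 77.3 CPM with METTL14. The MAT2B groups overlapped (log2 fold change -0.02, SE 0.0938, adjusted p = 0.902). When the trend of the changes on transcript length and GC content was removed, however, MAT2B came out as higher (log2 fold change 0.44, adjusted p = 0.00682). Its longest transcript has a GC content of 36.4%, the lowest of the 10 genes.

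The subunits can be compared within a library as counts per base of transcript, a ratio that does not depend on scaling between libraries. The MAT2A level per length was 4.43 and 3.50 times that of MAT2B in the controls, against 1.68 and 1.65 times with METTL14. The mean ratio fell from 3.97 ± 0.653 to 1.67 ± 0.0262 (SD, n = 2), and the groups did not overlap. MAT2A overlaps in its last exon with GGCX on the opposite strand. GGCX, the vitamin K-dependent carboxylase, did not pass the test (log2 fold change -0.03, SE 0.112, adjusted p = 0.829).

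MAT2A messenger RNA is itself a target of an m6A methyltransferase. METTL16, which works apart from METTL3 and METTL14, is known to bind hairpins in the 3′ untranslated region of MAT2A and to link the splicing and stability of this RNA to the supply of SAM. The sites are shown because they set MAT2A apart from the other members. The search was for TACAGAGAA and TACAGAAAA, spellings of the motif on the transcript strand, in the longest coding transcript of each gene in GENCODE 29. The 6 sites of MAT2A are printed 5′ to 3′ in DNA letters with 10 bases on each side, the motif in capitals.
MAT2A site 1: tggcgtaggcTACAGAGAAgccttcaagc
MAT2A site 2: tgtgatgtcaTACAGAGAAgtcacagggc
MAT2A site 3: ctggtgtagcTACAGAGAAaccagcttcc
MAT2A site 4: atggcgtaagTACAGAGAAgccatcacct
MAT2A site 5: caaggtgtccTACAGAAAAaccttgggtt
MAT2A site 6: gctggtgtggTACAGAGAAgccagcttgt

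All 6 lie on the plus strand in exon 9, the last exon, after the coding sequence. On GRCh38 they span chr2:85543802-85543830, chr2:85544589-85544617, chr2:85544774-85544802, chr2:85544889-85544917, chr2:85545004-85545032 and chr2:85545112-85545140. The motifs begin 40, 827, 1012, 1127, 1242 and 1350 bases after the end of the coding sequence, in an untranslated region of 1508 bases. Of the transcripts of 12653 tested genes, 8.43% held either spelling and 3.71% held TACAGAGAA. No other transcript had as many as 6, and 4 transcripts, MAT2A included, had 4 or more. In MAT2A the longest unbroken stretch in which the 10 bases before the motif could pair with the 10 after it (A with T, G with C) was 4 to 6 bases at each site. Among 1176 sites in other transcripts the median stretch was 3 bases, and 21.3% reached 4 or more. Among the other members, AHCYL1 and NNMT held 1 site each, shown for comparison, in the 5′ untranslated region of AHCYL1 (chr1:109985514-109985542, plus strand) and the 3′ untranslated region of NNMT (chr11:114312775-114312803, plus strand).
AHCYL1 site: gcatggggtgTACAGAAAAtctcccttca
NNMT site: cgtacctgccTACAGAGAAgtgtctgcag

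The flanks paired over 3 bases at the AHCYL1 site and 4 at the NNMT site. A match of letters does not show that a site is used.

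**Figure D2:**
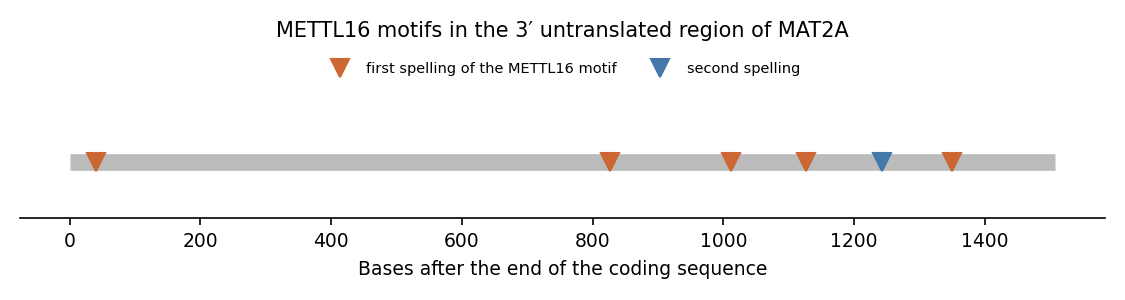
Position of the 6 METTL16 motifs (triangles, orange for TACAGAGAA and blue for TACAGAAAA) along the 3′ untranslated region of MAT2A (grey bar), in bases after the end of the coding sequence. The first lies 40 bases after the coding sequence and the other 5 between 827 and 1350.

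Of 6 tested genes for the processing of MAT2A RNA and for sensing or carrying SAM, 4 were lower and none higher. Of all tested genes 28.1% were lower and 27.0% higher. No gene of the list was higher at an unadjusted p under 0.05 (edgeR) or with DESeq2 or limma-voom. Without METTL14 replicate 1 only 2 were lower, and 1 was higher without control replicate 2, as under removal of the trend on length and GC. METTL16 stood at 75.0 and 59.5 CPM in the controls and at 51.7 and 49.9 CPM with METTL14 (log2 fold change -0.41, SE 0.132, adjusted p = 0.0335). Without METTL14 replicate 1 (adjusted p = 0.119) or replicate 2 (0.164) METTL16 was no longer called. The m6A reader YTHDC1 stood at 69.7 and 69.2 CPM in the controls and at 43.5 and 49.9 CPM with METTL14 (log2 fold change -0.57, SE 0.111, adjusted p = 0.004), a call lost without METTL14 replicate 1 (0.0791). NUDT21 (log2 fold change -0.62, SE 0.0955) and CPSF6 (log2 fold change -0.62, SE 0.0988), subunits of the cleavage factor that selects poly(A) sites, were lower too, and NUDT21 lost its call with the length and GC trend removed (log2 fold change -0.25, adjusted p = 0.0602). SLC25A26, the mitochondrial SAM carrier (log2 fold change 0.12, SE 0.133), and BMT2, the SAM sensor of the mTORC1 pathway (log2 fold change 0.44, SE 0.238), did not pass the test. Counts per gene do not separate spliced MAT2A RNA from RNA that keeps an intron, so the splicing of MAT2A was not tested.

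AHCY (chromosome 20, 34280268 to 34311802, minus strand), the hydrolase that removes S-adenosylhomocysteine, was the highest of the 10 per transcript length in the controls. It stood at 489 and 382 CPM in the controls and at 191 and 173 CPM with METTL14. As for MAT2A, control replicate 1 was the highest library and the groups were well apart. AHCY was 2.40-fold lower (log2 fold change -1.26, SE 0.139, adjusted p = 0.000374), a change of the same size as that of MAT2A. Per base of transcript AHCY stood at 1.98 and 2.01 times the level of MAT2A in the controls and at 2.05 and 1.95 times with METTL14. The ratio of these transcripts was thus nearly level in all 4 libraries, the 2 controls included.

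AHCYL1 and AHCYL2 resemble AHCY in sequence. AHCYL1 (chromosome 1, 109984686 to 110023741, plus strand) is known as IRBIT, a protein that binds the inositol trisphosphate receptor and ion transporters and is not known to act as a hydrolase. AHCYL1 stood at 188 and 205 CPM in the controls and at 397 and 399 CPM with METTL14. It was 2.03-fold higher (log2 fold change 1.02, SE 0.0983, adjusted p = 0.000245), at percentile 89.3 of all tested changes. AHCYL2 (chromosome 7, 129225023 to 129430211, plus strand) stood at 40.2 and 41.4 CPM in the controls and at 52.8 and 53.7 CPM with METTL14. Its groups did not overlap, and it was 1.31-fold higher (log2 fold change 0.38, SE 0.103, adjusted p = 0.0158). The AHCYL2 call was lost without METTL14 replicate 1 (adjusted p = 0.148) and without replicate 2 (0.178), at log2 fold changes of 0.40 and 0.37.

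AHCY and AHCYL1 changed places in abundance. Per base of transcript, AHCY stood at 4.75 and 3.40 times the level of AHCYL1 in the controls, and at 0.875 and 0.789 times with METTL14. The mean ratio fell 4.90-fold, with no overlap between groups. In CPM per kilobase of the longest coding transcript, AHCY fell from 184 ± 32.0 to 76.8 ± 5.38 while AHCYL1 rose from 45.5 ± 2.73 to 92.3 ± 0.278 (SD, n = 2). AHCY made up 80.1 and 74.4% of the summed level of the 3 genes in the controls, against 44.0 and 41.4% with METTL14. AHCYL1 made up 16.9 and 21.9% in the controls against 50.3 and 52.5% with METTL14, and AHCYL2 at most 6.03% in any library. The summed level of the 3 genes was 258 and 217 CPM per kilobase in the controls against 183 and 176 with METTL14. The shares and this sum rest on the longest coding transcript. With the median length of a gene's coding transcripts, AHCY stood at 193 and 80.6 CPM per kilobase in the controls and with METTL14. AHCYL1 then stood at 48.9 and 99.2 and AHCYL2 at 21.6 and 28.3, a larger share for AHCYL2.

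**Figure D3:**
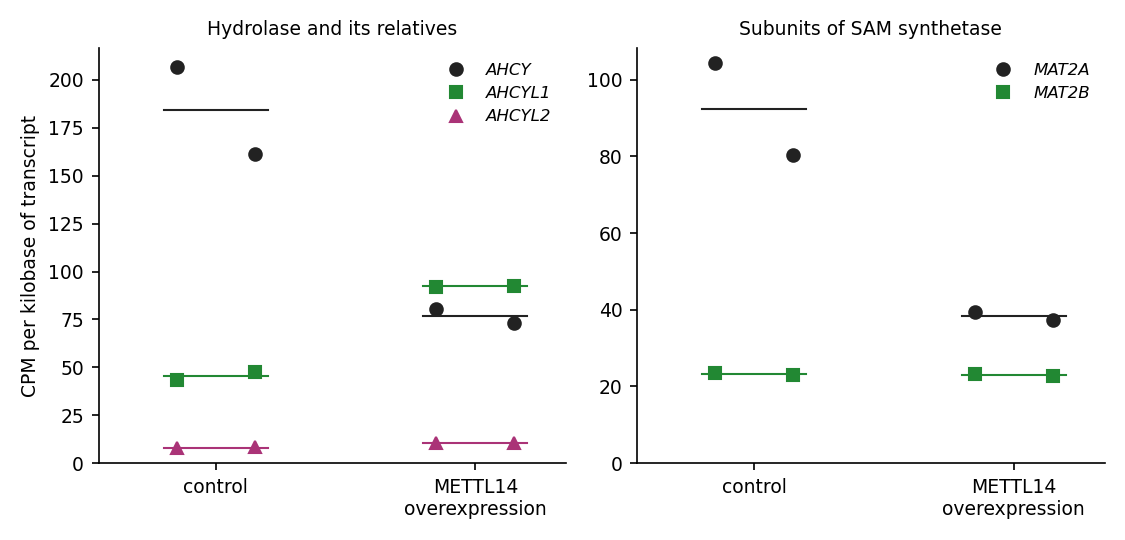
Level per transcript length (CPM per kilobase) of AHCY, AHCYL1 and AHCYL2 (left) and of MAT2A and MAT2B (right) in each library (points), with group means (lines). AHCY lies above AHCYL1 in both controls and below it in both METTL14 libraries, and MAT2A comes down towards MAT2B, which stays near 23 CPM per kilobase.

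Among 6 tested genes of proteins that bind AHCYL1, 3 were higher and 2 lower, where 27.0% and 28.1% of all tested genes were. Without METTL14 replicate 1, without METTL14 replicate 2 or with DESeq2 1 was lower, and under removal of the trend on length and GC 1 was higher. RRM1, the large subunit of ribonucleotide reductase, which AHCYL1 is known to inhibit, fell from 263 ± 24.8 to 89.8 ± 1.74 CPM (means ± SD, n = 2), a log2 fold change of -1.55 (SE 0.109). The inositol trisphosphate receptors ITPR2 (log2 fold change 1.04, SE 0.210) and ITPR3 (log2 fold change 0.65, SE 0.134) were higher, and ITPR3 was not with the length and GC trend removed (log2 fold change 0.03, adjusted p = 0.857). FIP1L1, a subunit of the polyadenylation machinery, was lower by a small amount (log2 fold change -0.34, SE 0.101, adjusted p = 0.0228). The FIP1L1 call was lost with DESeq2 (adjusted p = 0.059), with that trend removed (0.17) and without METTL14 replicate 1 (0.203) or replicate 2 (0.237).

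MTR (chromosome 1, 236795281 to 236903981, plus strand), methionine synthase, moves a methyl group from folate to homocysteine with cobalamin (vitamin B12) as its cofactor. It stood at 51.1 and 49.3 CPM in the controls and at 34.6 and 36.4 CPM with METTL14. Libraries within a group were close to each other, and MTR was 1.41-fold lower (log2 fold change -0.50, SE 0.106, adjusted p = 0.00589). The MTR call was lost without METTL14 replicate 1 (log2 fold change -0.46, adjusted p = 0.102) and, narrowly, without replicate 2 (log2 fold change -0.54, adjusted p = 0.052). MTRR (chromosome 5, 7851186 to 7906025, plus strand), the reductase that reactivates MTR, stood at 29.4 and 26.7 CPM in the controls and at 24.4 and 26.6 CPM with METTL14. The MTRR groups lay side by side with almost no gap, and the gene did not pass the test (log2 fold change -0.14, SE 0.121, adjusted p = 0.364). MTRR shares exon positions with FASTKD3 on the opposite strand, and FASTKD3 was lower (log2 fold change -1.04, SE 0.169). Whether reads of FASTKD3 entered the MTRR count was not tested. Per base of the longest coding transcript, the level of MTR relative to MTRR fell from 0.557 ± 0.0230 to 0.433 ± 0.0112 (SD, n = 2). With the median length of a gene's coding transcripts it fell from 0.103 to 0.0800, so the size of the ratio rests on the transcript chosen.

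The genes that supply methionine synthase with folate methyl groups and cobalamin moved both ways, with 2 of 12 higher and 6 lower (median log2 fold change -0.33). Of all tested genes 27.0% were higher and 28.1% lower. MTHFD1, which carries folate units between oxidation states, fell from 442 ± 45.5 to 206 ± 1.18 CPM (means ± SD, n = 2), a log2 fold change of -1.10 (SE 0.109). MMACHC, which strips the ligand from cobalamin, fell from 26.9 ± 2.27 to 11.8 ± 0.386 CPM, a log2 fold change of -1.19 (SE 0.135), and shares exon positions with the far more abundant PRDX1. LMBRD1, needed to export cobalamin from the lysosome, rose from 21.5 ± 2.17 to 34.8 ± 1.60 CPM, a log2 fold change of 0.69 (SE 0.126).

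MTAP (chromosome 9, 21802543 to 21937651, plus strand) splits methylthioadenosine, the first step of methionine salvage. It stood at 57.5 and 51.3 CPM in the controls and at 35.4 and 39.8 CPM with METTL14, with no overlap. MTAP was 1.45-fold lower (log2 fold change -0.53, SE 0.120, adjusted p = 0.00763), and its call was lost without METTL14 replicate 1 (log2 fold change -0.45, adjusted p = 0.112). A second row with this symbol, which shares exons with the first, held 5 and 32 counts in the controls against 17 and 12 with METTL14. Adding it gave a log2 ratio of mean CPM of -0.53, as for the main row alone.

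Of 8 tested genes of the methylthioadenosine source and methionine salvage 4 were lower, against 28.1% of all tested genes, and none higher, against 27.0%. The median log2 fold change of the 8 was -0.57. At an unadjusted p under 0.05 (edgeR) 6 were lower and 0 higher, and DESeq2 and limma-voom each called 4 lower and 0 higher. The number called lower was larger when either control was left out. Leaving out control replicate 2 brought 9 genes of the list into the test. With the length and GC trend removed 6 were lower and 1 was higher. ADI1, the dioxygenase near the end of salvage, fell from 207 ± 36.1 to 47.9 ± 1.38 CPM (means ± SD, n = 2), a log2 fold change of -2.11 (SE 0.139). ENOPH1, the salvage enzyme before it, fell from 143 ± 10.5 to 78.2 ± 4.18 CPM, a log2 fold change of -0.87 (SE 0.105). AMD1, which decarboxylates SAM for polyamine synthesis, fell from 256 ± 3.90 to 149 ± 0.288 CPM, a log2 fold change of -0.78 (SE 0.0931). SRM, spermidine synthase, which releases methylthioadenosine, fell from 184 ± 66.0 to 58.1 ± 1.00 CPM, a log2 fold change of -1.66 (SE 0.224), with controls that differed widely.

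CBS (chromosome 21, 43053191 to 43076943, minus strand) condenses homocysteine with serine and so draws it out of the cycle towards cysteine. It was listed at 0 in all 4 libraries, as was its near-identical copy CBSL. At these depths 3 counts would be at most 0.156 CPM, which covers counting error only. Another chromosome 21 gene with duplicate rows, U2AF1, held counts in each row. Its first row had 1172 and 1050 counts for the controls, and its second row 868 and 1011. For the METTL14 libraries the first row had 499 and 868 (log2 fold change -0.74), the second 434 and 199 (-1.60). The split of U2AF1 counts between its rows thus varied between libraries. How reads were assigned between CBS and CBSL was not tested. Whether CBS is transcribed in these cells was not tested beyond its listing at 0. CTH, the enzyme after CBS, rose from 21.0 ± 2.28 to 41.8 ± 4.47 CPM (means ± SD, n = 2), a log2 fold change of 1.00 (SE 0.137). Of 10 tested genes of transsulfuration and glutathione 3 were higher and 1 was lower, where 27.0% and 28.1% of all tested genes were. GCLC, the rate-limiting ligase of glutathione, was higher (log2 fold change 0.69, SE 0.130), and GSS, glutathione synthetase, was lower (log2 fold change -0.64, SE 0.103). SQOR, which oxidises sulfide, was higher (log2 fold change 0.41, SE 0.137, adjusted p = 0.0364), but not with DESeq2 (adjusted p = 0.0689) and not without METTL14 replicate 1 (0.269) or replicate 2 (0.0986).

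NNMT (chromosome 11, 114257787 to 114313285, plus strand) methylates nicotinamide with SAM and can be a large user of methyl groups in cells that make much of it. It held 5 and 4 counts in the controls against 3 and 3 with METTL14, which was too few to be tested. The ratio of summed counts was 0.673 (95% exact interval 0.197 to 2.12, counting error only), so a difference was not detectable at this depth. Of 6 tested genes of nicotinamide and NAD salvage 1 was higher and 2 were lower, where 27.0% and 28.1% of all tested genes were. The higher count was 2 without control replicate 1, without control replicate 2 or with the length and GC trend removed, and the lower count 1 without METTL14 replicate 2. NAMPT, which sends nicotinamide back to NAD, rose from 95.7 ± 16.5 to 163 ± 5.83 CPM (means ± SD, n = 2), a log2 fold change of 0.77 (SE 0.133). NAPRT, which uses nicotinic acid, was lower (log2 fold change -0.94, SE 0.105), as was NMNAT3 (log2 fold change -1.29, SE 0.308), whose call was lost without METTL14 replicate 2 (log2 fold change -1.04, adjusted p = 0.104).

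**Figure D4:**
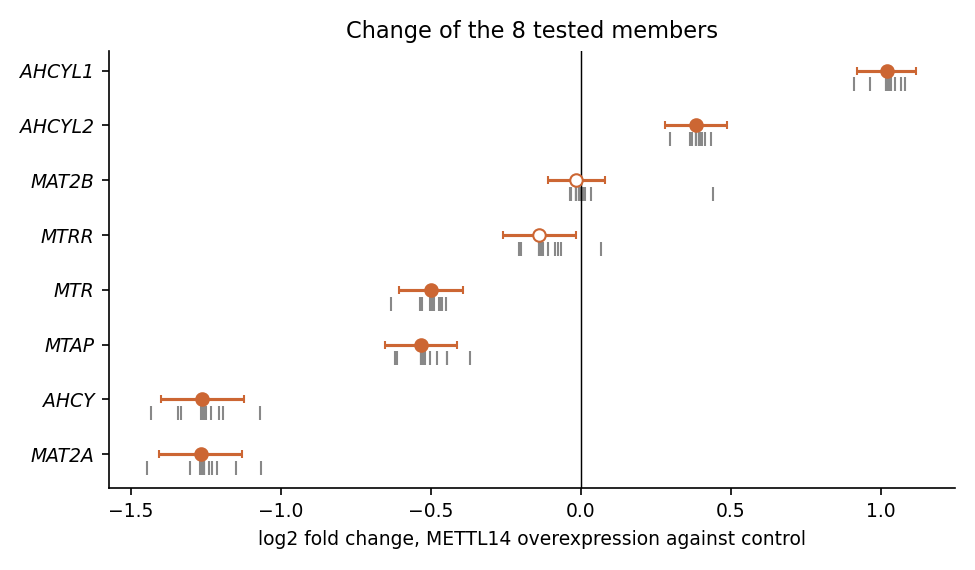
Log2 fold change of the 8 tested genes between METTL14 overexpression and control, with its standard error (filled circles passed the test, open circles did not). Grey ticks give the value under each of 13 alternative analyses. The ticks stay on 1 side of 0 for all genes but MAT2B and MTRR.

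Per base of the longest coding transcript, the order of levels in the controls was AHCY (184 CPM per kilobase), MAT2A (92.3), AHCYL1 (45.5), MAT2B (23.3), MTRR (8.57), AHCYL2 (8.07), MTAP (7.20), MTR (4.77) and NNMT (0.125). Of these neighbours only MTRR and AHCYL2 overlapped between libraries. With METTL14 it was AHCYL1 (92.3), AHCY (76.8), MAT2A (38.3), MAT2B (23.0), AHCYL2 (10.5), MTRR (7.79), MTAP (4.98), MTR (3.37) and NNMT (0.0810), with no overlap. The places of MTRR, AHCYL2 and MAT2B rest on the transcript chosen. With the median length of a gene's coding transcripts, MTRR stood at 47.0 and 42.7 CPM per kilobase in the 2 groups. MTRR then lay above MAT2B, at 36.6 and 36.2, and above AHCYL2, at 21.6 and 28.3. The letters GGACT, a frequent core of m6A sites, occurred 0 to 1.38 times per kilobase in the members' transcripts. The median of tested genes was 0.95 (quartiles 0.58 and 1.41). AHCYL2 had the highest density and MAT2B and CBS had none. A density of letters does not show methylation, which was not tested.

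Of 6 tested genes for liver-type and betaine enzymes of the cycle 2 were higher, both from a few counts in the controls, and none was lower, nor at an unadjusted p under 0.05 (edgeR) or with DESeq2 or limma-voom. With the length and GC trend removed 1 was lower. With a filter of at least 5 CPM in 2 libraries 3 genes of the list were tested and 0 were higher. Over all tested genes 27.0% were higher and 28.1% lower. MAT1A, the liver synthetase, was counted 3 and 6 times in the controls against 46 and 46 with METTL14. Both METTL14 libraries were far above both controls (log2 fold change 3.28, SE 0.471, adjusted p = 0.0011), and the ratio of summed counts was 10.3 (95% exact interval 5.21 to 23.3, counting error only). At 2.32 CPM with METTL14, MAT1A remained far below MAT2A at 108 CPM. DMGDH, which breaks down the product left when betaine gives up a methyl group, had 2 and 6 counts against 55 and 61 (log2 fold change 3.78, SE 0.497). MAT1A and DMGDH passed the count filter only through the METTL14 libraries. A gene so low in the controls could enter the test only by rising, so their calls were not open to the other direction. Summed over 7 hepatocyte markers, MAT1A among them, the level was 33.6 and 36.4 CPM in the controls and 172 and 169 CPM with METTL14. SERPINA1 made up nearly all of it, rising from 34.6 to 168 CPM, while APOB and TTR were at 0 and ALB held 1 or 2 counts per library. BHMT, which uses betaine to methylate homocysteine, was listed at 0 in all libraries, and BHMT2 held 3 counts in the controls together and none with METTL14. GNMT, which uses up excess SAM in liver (log2 fold change 0.27, SE 0.435), and CHDH, which turns choline into the precursor of betaine (log2 fold change -0.03, SE 0.128), did not pass the test. Nor did ALDH7A1, which oxidises that precursor to betaine and was the most abundant of the list, at 124 CPM in the controls and 145 CPM with METTL14 (log2 fold change 0.22, SE 0.122, adjusted p = 0.164).

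Of 10 tested carriers that bring methionine into the cell 3 were higher and 2 lower, near the 27.0% and 28.1% of all tested genes. SLC38A2, a sodium-coupled neutral amino acid transporter, rose from 187 ± 48.0 to 422 ± 10.1 CPM (means ± SD, n = 2), a log2 fold change of 1.18 (SE 0.168). SLC7A7 (log2 fold change 0.61, SE 0.123) and SLC7A8 (log2 fold change 0.54, SE 0.112) were higher, and SLC7A5, the main large neutral amino acid exchanger, was lower (log2 fold change -0.53, SE 0.117). The list had 5 higher without control replicate 1, and its lower count was 4 without control replicate 2, 1 without METTL14 replicate 1 and 0 without METTL14 replicate 2. The call of SLC7A8 was lost without METTL14 replicate 1 (adjusted p = 0.0542) and that of SLC7A5 without replicate 2 (0.0802).

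Methyltransferases consume the SAM that the cycle makes. Of 33 tested enzymes acting on RNA, DNA and protein 4 were higher, METTL14 among them, and 16 were lower, where 27.0% and 28.1% of all tested genes were. The median log2 fold change of the 33 was -0.20. The higher count was 1 without METTL14 replicate 1 or without replicate 2, and 2 under removal of the trend on length and GC. FBL, which methylates ribosomal RNA, fell from 178 ± 10.4 to 79.3 ± 1.09 CPM (means ± SD, n = 2), a log2 fold change of -1.17 (SE 0.0995). The histone methyltransferases EZH2 (log2 fold change -1.26, SE 0.130) and SUV39H1 (log2 fold change -1.26, SE 0.136) were lower by about as much as MAT2A and AHCY. Of 6 tested small-molecule methyltransferases 1 was higher and 2 were lower, and the higher count was 0 without METTL14 replicate 1, without replicate 2 or with DESeq2. GAMT, which makes creatine, fell from 150 ± 6.83 to 72.3 ± 2.64 CPM, a log2 fold change of -1.05 (SE 0.0989), and COQ3, of coenzyme Q synthesis, from 10.2 ± 0.268 to 3.83 ± 0.0365 CPM, a log2 fold change of -1.41 (SE 0.184). For adenosine, the other product of AHCY, the deaminase ADA was higher (log2 fold change 0.64, SE 0.120). The kinase ADK did not pass the test (log2 fold change -0.26, SE 0.129, adjusted p = 0.125). ADAL, a relative of ADA whose action on adenosine was not tested, was lower (log2 fold change -0.70, SE 0.167). The ADAL call was lost without METTL14 replicate 2 (log2 fold change -0.57, adjusted p = 0.111). Several of the genes above share exon positions with another gene, which leaves their counts less certain. Among them are MTHFD1 with ZBTB25, DMGDH with BHMT, ADA with PKIG, ITPR3 with UQCC2, FIP1L1 with LNX1 and SLC25A26 with LRIG1. GNMT, at a mean of 16.75 counts, shares exon positions with PEX6, at 964.5.

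**Figure D5:**
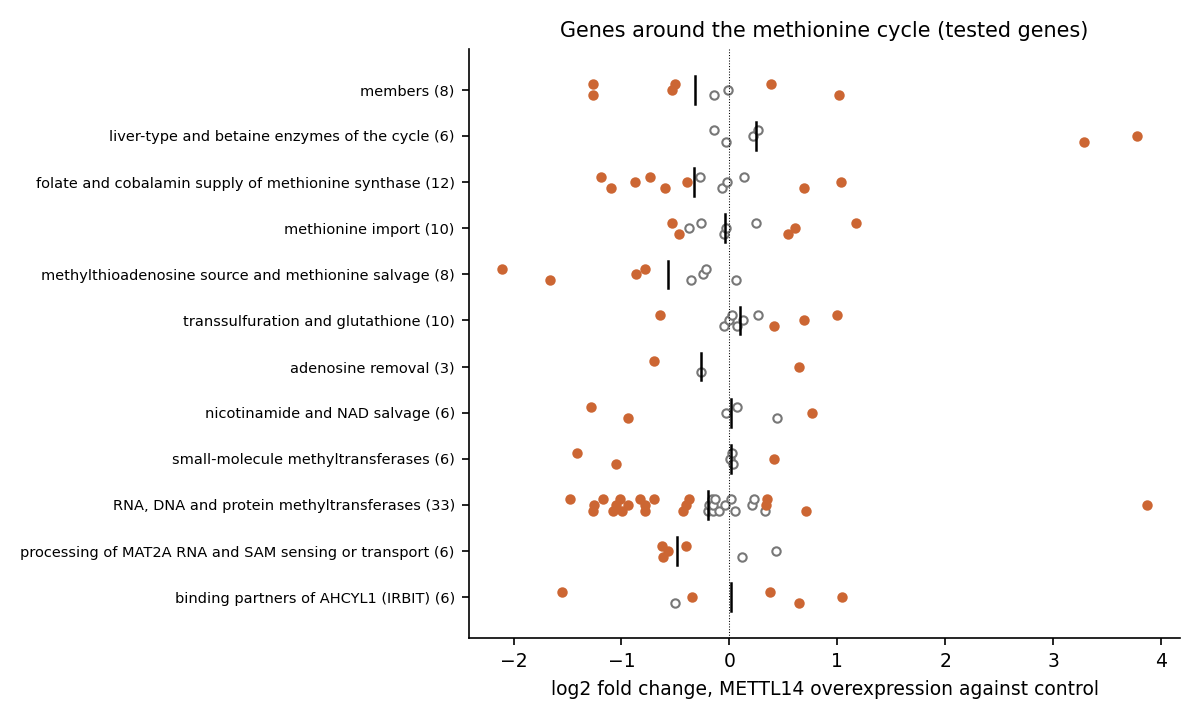
Log2 fold change of each tested gene in the methionine cycle (top) and in 11 lists of neighbouring genes, with the number tested in brackets. Filled points passed the test, open points did not, and the black bar is the median of the list. METTL14 is the point furthest to the right among the methyltransferases, and the salvage list has no filled point above 0.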

How the data were processed

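Per the labels' protocols, poly(A) RNA was extracted with Trizol and sequenced on an Illumina NovaSeq. The submitters' processing notes name fastp, Bowtie2, HISAT2, StringTie and RSEM and the build hg18. Strand setting and annotation are not given in the sources used here. Each deposited file gives the authors' expected counts for every gene, which carry fractions of a read in 10.8 to 11.6% of rows and have no normalization. After rounding, edgeR 4.0.16 under R 4.3.3 was run with TMM scaling, filterByExpr at a minimum count of 10 and the robust quasi-likelihood test, with Benjamini-Hochberg adjustment over 12700 genes at 0.05. The standard error printed is approximate, the log2 fold change over the root of the F statistic.

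Where a symbol has several rows, the one with the highest mean count was used. Positions, transcript sequences and lengths are from GENCODE 29 (GRCh38), which holds 20171 of the 20323 identifiers. Nothing ties the replicate numbers to separate cultures, so p-values measure the spread between these libraries, which may be technical. The test was checked on simulated counts.

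The 10 genes and the 11 lists were chosen with earlier results of these data known. Genes named are METTL14, the 10 genes, METTL16, YTHDC1, up to 4 called genes per list with the smallest p, and uncalled genes of small lists. Some genes that this rule takes are counted in their lists but not reported here by name. SERPINA1, APOB, TTR, ALB, CEACAM5, U2AF1, GGCX, FASTKD3, PRDX1, KRT8, KRT18, CDH17, CDH1, LGALS4, CDX2, EPCAM, SLC25A26, BMT2, GNMT, CHDH, ALDH7A1, BHMT and BHMT2 were named after their values were seen, as context. So were KRT19, PDGFRB, COL1A1, COL1A2, COL3A1, CD14, LYZ and PEX6. Alternatives were DESeq2 1.42.0, limma-voom (limma 3.58.1), RLE scaling, library totals, a block for replicate number, a fit with no filter or with at least 5 CPM in 2 libraries, a fit that is not robust, removal of a loess trend on length and GC content, and leaving out each library.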

Additional observations from a re-analysis of the deposited data

How the results depend on the processing

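Of the 8 tested genes of the cycle, MAT2A, AHCY and AHCYL1 kept their direction and their call under all 13 alternatives, with log2 fold changes from -1.45 to -1.07, -1.43 to -1.07 and 0.91 to 1.08. MAT2B turned from -0.02 to 0.44 and was called higher with the length and GC trend removed, an alternative that changed no other call among the 8. Leaving out 1 library in turn gave 1 to 2 higher and 2 to 4 lower genes of the cycle. It gave 13 to 27 higher and 29 to 54 lower genes of the 11 lists together, against 20 and 39 of 105 with all libraries. Over all tested genes it gave 2306 to 4450 higher and 2305 to 4575 lower, against 3429 and 3569. The lowest of these counts all came without METTL14 replicate 1 or replicate 2. Same-numbered libraries did not deviate together (correlation 0.04), so the numbers were not taken as pairs. With replicate number as a block, 2 genes of the cycle were higher and 4 lower, 22 and 42 of the lists, and 3793 and 3903 of all tested genes. Of the 44 called genes that the naming rule takes, 30 kept their call under every alternative that could give a value and 14 lost it under at least 1, while MTRR was called under none. Depth limits NNMT, which could not be tested, and the size of the rises of MAT1A and DMGDH. CBS and its copy CBSL were both listed at 0, and whether the assignment of reads set this was not tested.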
